A study of Mus musculus with 22 samples.

Results

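Mitochondria and the endoplasmic reticulum (ER) touch at contact sites, and 33 genes for proteins of these sites were followed in mouse CD8+ T cells, the killer class of T cell. The genes were taken from a list of symbols for tethers, calcium channels, ER chaperones, lipid transfer proteins and proteins that fuse, divide or fold mitochondria. All 33 symbols matched a gene in the deposited tables, and all 33 passed the filter on low counts, out of 21183 tested genes among 46603 in the count table. The series title links Tcaim, the gene altered in these mice, to mitochondria-ER contacts, which is the question this list addresses.

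RNA was sequenced in bulk from 22 libraries of 8 mice. Wild-type (wt, labelled wtcre, 3 mice) and knock-in (KI, labelled hocre, 3 mice) animals came from the Tcaim KI Cd4Cre line and gave naive cells, cells after 24 h and cells after 48 h. The other 2 mice, labelled KO, came from the Tcaim KO Cd4Cre line and gave naive cells and cells after 48 h. The 22 libraries include no KO cells at 24 h and no wt mice from the KO line, so KO could be compared only with wt of the other line. Replicates are separate mice. Naive CD8+ cells came from spleens and lymph nodes after the unwanted cells had been depleted magnetically. Stimulation used anti-CD3 fixed to the plate, which triggers the T cell receptor, and anti-CD28 in solution, which adds costimulation. Cd4Cre is a Cre recombinase under the Cd4 promoter, which acts in developing T cells of both the CD4 and CD8 lineages, so a change in the animals covers both. The labels place the mice in experiments 1, 3 and 5, with KO mice in 1 and 5. In experiments 1 and 3 the KI and wt mice were male, in experiment 5 they were female, and both KO mice were female. Mouse ages were not among the labels used here.

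Total counts ran from 62551905 to 93489115 per library. Tcaim stood at 138 to 145 CPM (read counts scaled to a common library size with edgeR's TMM factors) in naive KI libraries and at 178 to 260 CPM in stimulated ones, against 8.38 to 15.2 CPM in wt. In the 2 mice labelled KO, Tcaim was at 14.9 and 19.6 CPM in naive cells, then 11.7 and 5.99 CPM at 48 h. The difference from wt did not pass the edgeR test (log2 0.21 and -0.19, adjusted p 1 and 0.841), so the text speaks of libraries labelled KO. Which part of the gene is altered is not given in the sources used here. The sum of the CD8 T cell markers Cd3e, Cd8a, Cd8b1 and Trac was 1900 to 3910 CPM in every library. Markers of B, myeloid, dendritic, NK and erythroid cells summed to 179 to 1100 CPM in naive libraries and to 35.7 to 181 CPM in stimulated ones. The 1100 CPM belonged to the naive library labelled KO of experiment 1, and the next naive library held 523 CPM. Of these 13 markers, all but Hba-a1 and Hbb-bt had counts in every library. The fall of this sum on stimulation moves with every comparison against naive cells below, and its part in those results was not tested. The dendritic cell marker Zbtb46 went the other way, from a mean of 1.27 CPM naive to 7.72 CPM at 48 h in wt. In bulk RNA, fewer cells of a type and less RNA per cell cannot be told apart. Cd4 stood at 184 and 152 CPM in the libraries labelled KO of experiment 1, against 54.8 CPM or less elsewhere. The KO 48 h library of that experiment stood apart on the second principal component (149, against 72.1 for the next library), so the KO results at 48 h are also given without it, after the comparison of libraries labelled KO with wt.

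At a contact site the ER and the outer mitochondrial membrane are held a short distance apart by protein pairs. Calcium leaves the ER through inositol trisphosphate receptors (Itpr genes), crosses the outer membrane through voltage-dependent anion channels (Vdac genes) joined to them by the chaperone mortalin (Hspa9), and enters the matrix through the uniporter (Mcu). Phospholipids are handed over at the same sites, and mitochondria divide there. In T cells, calcium from the ER starts signalling after receptor engagement, and mitochondrial uptake of it shapes both the signal and respiration.

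The sequences before the start sites of 4 members are shown because they carry the motifs searched and belong to genes that the results turn on. They hold the 250 bases before the start, from RefSeq windows on GRCm38.p6, in the direction of the gene. Capitals mark the fixed letters of the ER stress element (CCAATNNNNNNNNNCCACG, a site of the unfolded protein response), the E-box CACGTG, the NRF1-type palindrome (GCGCA, any base, GCGC) and the CCAAT box, each on either strand. Calr and Canx code for the lectin chaperones that fold glycoproteins in the ER, Opa1 for the inner membrane fusion GTPase, and Osbpl5 for a lipid transfer protein.
Calr, chr8:84846932-84847181, minus strand: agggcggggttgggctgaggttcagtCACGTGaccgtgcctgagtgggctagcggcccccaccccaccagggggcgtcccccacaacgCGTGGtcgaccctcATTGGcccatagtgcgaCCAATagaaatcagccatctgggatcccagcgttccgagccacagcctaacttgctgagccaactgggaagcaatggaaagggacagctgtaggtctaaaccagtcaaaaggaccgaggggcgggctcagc
Canx, chr11:50325674-50325923, minus strand: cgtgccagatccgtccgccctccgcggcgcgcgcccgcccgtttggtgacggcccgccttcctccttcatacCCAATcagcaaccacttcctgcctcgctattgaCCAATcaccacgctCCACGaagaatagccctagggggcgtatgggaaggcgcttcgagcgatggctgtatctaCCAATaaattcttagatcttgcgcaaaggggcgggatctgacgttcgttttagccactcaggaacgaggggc
Opa1, chr16:29579084-29579333, plus strand: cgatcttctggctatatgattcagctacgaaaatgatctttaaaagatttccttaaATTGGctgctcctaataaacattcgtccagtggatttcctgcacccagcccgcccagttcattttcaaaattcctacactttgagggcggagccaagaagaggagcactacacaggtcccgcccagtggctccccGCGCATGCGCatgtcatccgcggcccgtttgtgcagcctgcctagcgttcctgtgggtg
Osbpl5, chr7:143757009-143757258, minus strand: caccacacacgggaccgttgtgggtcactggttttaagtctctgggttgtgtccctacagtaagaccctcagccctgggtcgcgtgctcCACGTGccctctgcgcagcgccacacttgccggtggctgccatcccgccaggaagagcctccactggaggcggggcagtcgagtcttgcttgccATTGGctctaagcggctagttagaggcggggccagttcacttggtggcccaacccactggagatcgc

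Promoter windows of 300 bases (250 before and 50 after the start) were matched for 27 of the 33 members. The ER stress element was found in 2 of them, Calr and Canx (7.41%), against 0.119% of 32817 windows. In Calr it begins 162 bases before the start and in Canx 145 bases before it. The NRF1-type palindrome was found in 4 (14.8% against 4.59%), namely Immt, Opa1, Vapa and Vapb. The E-box was found in 5 (18.5% against 7.15%), namely Calr, Itpr3, Osbpl5, Osbpl8 and Vapa, and the CCAAT box in 15 (55.6% against 37.4%). Part of the CCAAT count overlaps the ER stress element, which contains that box. A further motif, the cAMP response element TGACGTCA, was found in Pdzd8 and Smdt1 (7.41% against 1.79%). These are matches of letters and were not tested against expression.

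The members differed widely in level in naive wt cells. By the deposited FPKM, which divides by gene length, Calr ranked first (182 ± 14.2, SD, n = 3), ahead of Bcap31 (96.1 ± 7.71) and Hspa9 (89.2 ± 2.55). Mcu ranked last at 2.14 ± 0.211 FPKM. The lowest count of any member in any library was 531, for Osbpl5, so no member was near the detection limit.

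Stimulation raised transcripts of the mitochondrial side of the calcium route, the ER lectin chaperones and the cristae organiser Immt. It lowered those of the ER calcium release channels and several lipid transfer genes. In wt cells at 48 h, edgeR called 19 of the 33 members higher than naive and 6 lower, at an adjusted p under 0.05. Among all tested genes 29.5% were called higher and 26.8% lower, so the share of lower members (6 of 33) was below that of all genes and the share of higher members (19 of 33) above it. Most of this was reached by 24 h, with 17 members higher and 6 lower, where 26.3% and 22% of all genes were called. From 24 h to 48 h, 0 members were called higher and 3 lower, against 4.08% and 3.41% of all genes. At an unadjusted p under 0.05 that last comparison held 8 members, against 21.3% of all genes, and DESeq2 called 1 higher, Osbpl8. The same gene and Rmdn3 were called higher without the KO 48 h library of experiment 1. The median log2 fold change of the members at 48 h was 0.35, against -0.04 over all genes. With upper-quartile scaling, which moved the median of all genes by -0.22, 12 members were called higher and 7 lower, and the share of all calls that were higher went from 52.5% to 41.7%. The heat map of all members shows these blocks by role.

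**Figure D1:**
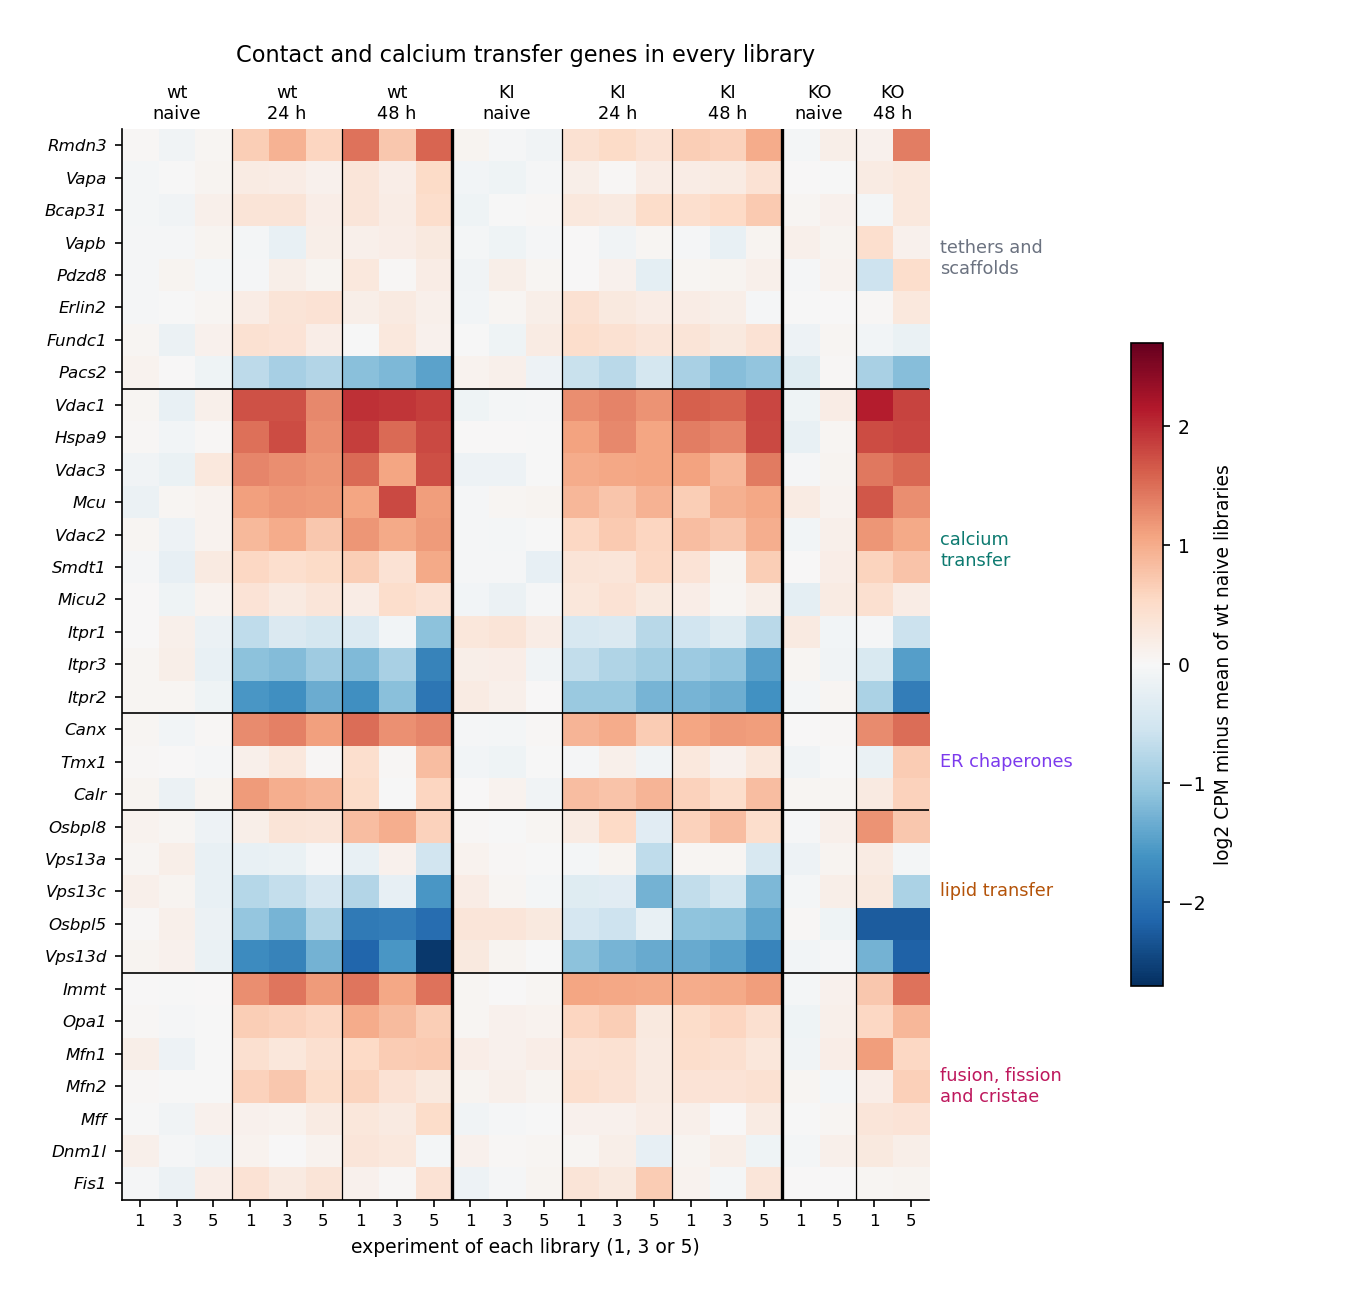
Each cell is 1 gene in 1 library, coloured by log2 CPM minus the mean of the 3 wt naive libraries, with genes ordered by role and by their change in wt at 48 h. Calcium transfer genes split into a red block (Vdac1 to Micu2) and a blue block (Itpr2 and Itpr3) in every stimulated group, and naive columns are close to white.

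The role classes moved differently in wt cells at 48 h. Of 10 calcium transfer genes 7 were called higher and 2 lower, with a median log2 fold change of 0.92. All 3 ER chaperone genes were called higher (median 0.48), but the calls of Calr and Tmx1 were each kept by 4 of 11 alternatives. Among the 7 fusion, fission and cristae genes 5 were called higher and 0 lower (median 0.43). Among the 8 tethers and scaffolds 3 were higher and 1 lower (median 0.18). Of 5 lipid transfer genes 1 was higher and 3 were lower (median -0.77), so this was the class with more lower than higher calls. These classes are small and the differences between them were not tested.

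**Figure D2:**
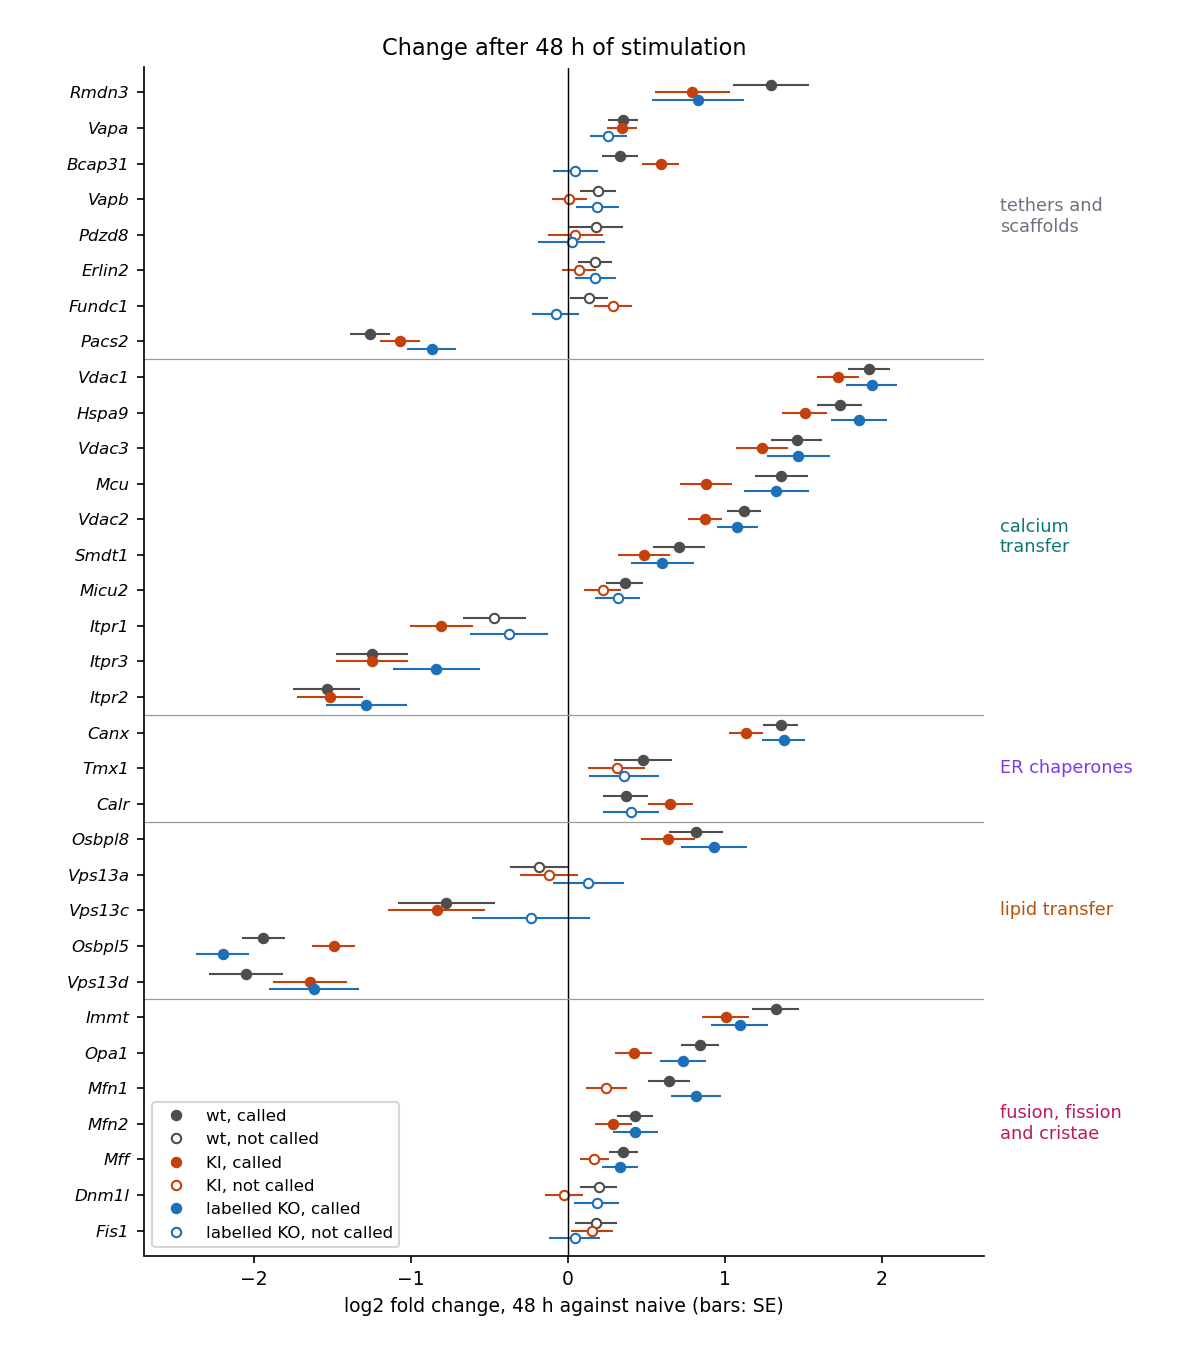
Points are edgeR log2 fold changes of 48 h against naive cells in wt, KI and libraries labelled KO, with bars of 1 standard error, and filled points passed the adjusted p threshold. Vdac1 and Hspa9 lie furthest right and Vps13d and Osbpl5 furthest left in wt, and the genotypes lie on the same side of 0 for most genes.

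Vdac1, the most abundant anion channel of the outer membrane (ENSMUSG00000020402, chromosome 11, 52360860 to 52389397, spans as in the authors' table, on GRCm38 per the submitters' processing notes), rose the most among the members in wt at 48 h. It stood at 92.1, 76.6 and 97.6 CPM in wt naive libraries of experiments 1, 3 and 5, at 291, 289 and 217 CPM at 24 h and at 347, 338 and 321 CPM at 48 h. In KI it went from 82, 85.5 and 86.7 CPM to 211, 223 and 204 CPM and then 270, 261 and 306 CPM. Libraries labelled KO went from 81.8 and 101 CPM to 386 and 313 CPM at 48 h (experiments 1 and 5). Naive and stimulated libraries did not overlap. At 48 h each KI library lay below each wt library, a difference that edgeR did not call. The share of all genes with such a separation of KI and wt is not given here. The edgeR fold change in wt at 48 h was 3.78 (log2 1.92, SE 0.134, adjusted p 1.47e-09). Its relatives followed in the same direction, Vdac2 by 2.18-fold (adjusted p 8.32e-08) and Vdac3 by 2.74-fold (adjusted p 5.75e-07).

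Hspa9, the mitochondrial chaperone mortalin that also joins Itpr to Vdac proteins, was the next largest riser (ENSMUSG00000024359, chromosome 18, 34937414 to 34954357). Wt libraries held 302, 282 and 301 CPM naive, 822, 999 and 704 CPM at 24 h and 1070, 854 and 1020 CPM at 48 h. KI libraries held 295, 297 and 292 CPM, then 629, 721 and 619 CPM, then 766, 739 and 1010 CPM. The pair labelled KO moved from 255 and 304 CPM to 995 and 1030 CPM. The wt change at 48 h was 3.32-fold by edgeR (log2 1.73, SE 0.144, adjusted p 1.38e-08). Stimulated libraries lay above naive ones throughout, while KI and wt overlapped at 48 h.

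Mcu, the pore of the mitochondrial calcium uniporter and the least abundant member in naive wt cells, also rose. Wt libraries went from 11.2, 13 and 13.4 CPM to 26.8, 28.3 and 27.7 CPM at 24 h and 26.1, 42.8 and 27.3 CPM at 48 h. KI libraries went from 12.2, 13 and 13.1 CPM to 23.1, 21.1 and 23.9 CPM and then 19.9, 24.4 and 25.9 CPM. Libraries labelled KO rose from 14.5 and 13.3 CPM to 40.1 and 29.9 CPM. By edgeR the 48 h change was 2.56-fold in wt (adjusted p 1.98e-06), 1.84-fold in KI (adjusted p 0.00028) and 2.51-fold in libraries labelled KO (adjusted p 4.72e-05). The partners of the pore rose less. In wt at 48 h, Smdt1, the small subunit that couples pore and gatekeeper, rose 1.63-fold (edgeR adjusted p 0.00129) and the gatekeeper Micu2 1.29-fold (adjusted p 0.0136). In FPKM the ratio of Mcu to Micu2 went from 0.055 ± 0.00691 in wt naive cells to 0.108 ± 0.0226 at 48 h (SD, n = 3).

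The ER release channels went the other way. Itpr2 (ENSMUSG00000030287, chromosome 6, 146108299 to 146502223) stood at 214, 212 and 190 CPM in wt naive libraries, at 69, 65.2 and 80.9 CPM at 24 h and at 65.3, 93.8 and 53.1 CPM at 48 h. In KI it held 238, 225 and 207 CPM, then 103, 103 and 86.4 CPM, then 85.5, 82.4 and 66.3 CPM. Libraries labelled KO fell from 199 and 213 CPM to 113 and 56.2 CPM. All stimulated libraries lay below all naive ones. The edgeR fold change at 48 h was 0.345 in wt (adjusted p 7.1e-06) and 0.35 in KI (adjusted p 1.18e-05).

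Itpr3 fell to 0.421 of its naive level in wt at 48 h (edgeR adjusted p 0.000157) and to the same fraction in KI (adjusted p 0.000204). In libraries labelled KO its fall to 0.56 of naive (edgeR adjusted p 0.021) was lost with those groups alone and without the mouse of experiment 5, with adjusted p up to 0.245. Itpr1 was called lower at 24 h in wt (fold 0.698, edgeR adjusted p 0.0405) and missed the threshold at 48 h (0.722, adjusted p 0.0539). With mice as a replicate block it was called at 48 h (log2 -0.51, adjusted p 0.011), as it was by DESeq2 (adjusted p 0.0307) and in 5 other alternatives. In KI it was called at both times, with a fold of 0.572 at 48 h (adjusted p 0.0029).

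Summed over each family in FPKM, transcripts of the anion channels rose against those of the release channels. Protein and calcium flow were not measured. The 3 Vdac genes together held 88.4 ± 9.31 FPKM in wt naive cells, 204 ± 25.5 at 24 h and 250 ± 13.9 at 48 h (SD, n = 3). The 3 Itpr genes held 57.8 ± 6.57, 25 ± 1.53 and 23.5 ± 7.11 FPKM. The ratio of the sums was 1.51, 1.24 and 1.92 in the wt naive libraries. It reached 9, 9.14 and 6.52 at 24 h and 10.9, 7.74 and 15.7 at 48 h. KI libraries started from 1.27, 1.29 and 1.54, with 5.04, 5.72 and 6.03 at 24 h and 7.43, 7.13 and 11.2 at 48 h. The ratio went from 1.39 and 1.76 to 7.07 and 12 in libraries labelled KO. Every stimulated library lay above every naive one. At 24 h every KI ratio was below every wt ratio, and at 48 h the genotypes overlapped. The ratio was not tested between genotypes.

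**Figure D3:**
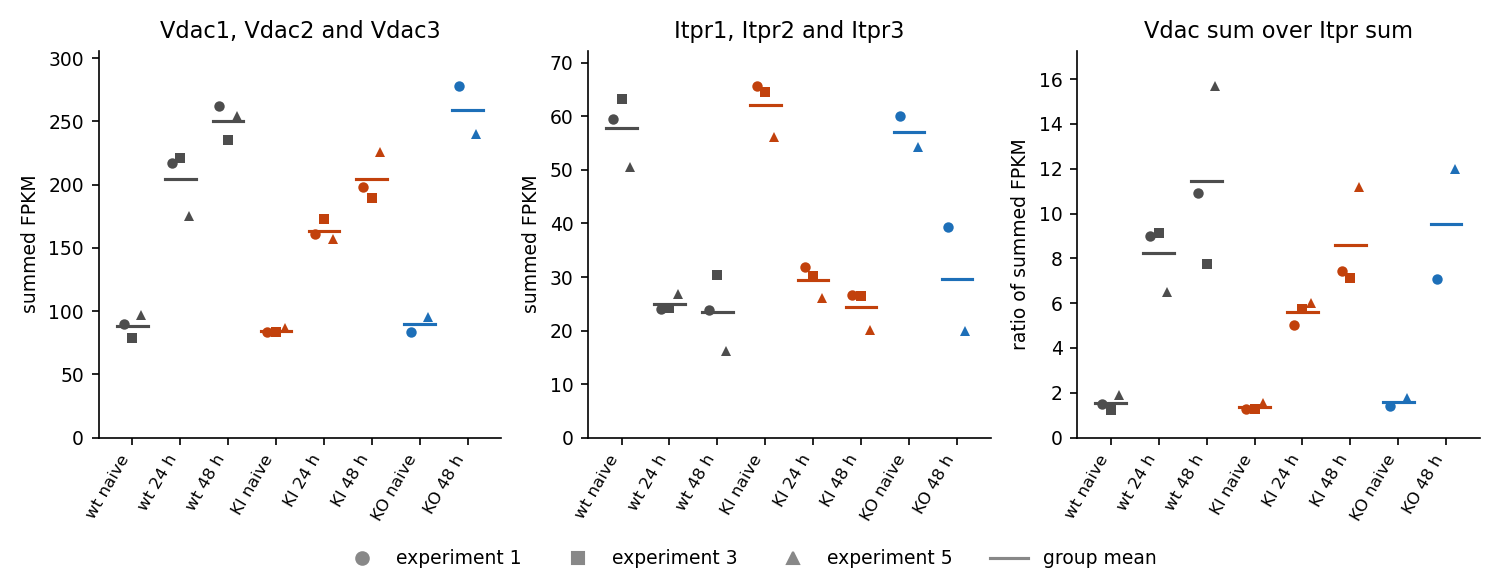
Points are libraries, shaped by experiment and coloured by genotype, with a line at the group mean, for the summed FPKM of the Vdac genes, that of the Itpr genes and the ratio of the sums. The Vdac sum rises and the Itpr sum falls between naive and 24 h in wt and KI, and the ratio reaches 15.7 in the wt 48 h library of experiment 5.

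Within families the mix also changed. Vdac1 made up 45.5 ± 0.874% of Vdac FPKM in wt naive cells and 57.3 ± 3.51% at 48 h (SD, n = 3), while the share of Vdac2 went from 36.5 ± 1.25% to 26.4 ± 0.351%. Itpr3 kept the largest share of its family in each group, with means between 59.1% and 62%. The mean share of Vdac1 was 57.8% in KI and 58% in libraries labelled KO at 48 h.

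Counts of some calcium genes are uncertain because of near copies. The pseudogene Vdac3-ps1 held 196% as many counts as Vdac3 over all libraries and rose alike in wt at 48 h (2.95-fold, edgeR adjusted p 2.11e-07). Hspa9-ps1 held 18% as many counts as Hspa9 and rose 3.5-fold (edgeR adjusted p 8.74e-09). How the counting shared reads between these copies was not tested.

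Among the ER chaperone genes, Canx and Calr were called higher by 24 h in wt and KI. Canx, calnexin (ENSMUSG00000020368, chromosome 11, 50293961 to 50325673), stood at 264, 242 and 263 CPM in wt naive libraries, at 617, 656 and 548 CPM at 24 h and at 725, 602 and 637 CPM at 48 h. KI libraries held 249, 247 and 261 CPM, then 483, 516 and 411 CPM, then 537, 567 and 558 CPM. The pair labelled KO went from 259 and 262 CPM to 622 and 730 CPM. Every KI library lay below every wt library at both stimulated times, but edgeR called neither difference between KI and wt. The edgeR change in wt at 48 h was 2.56-fold (log2 1.35, SE 0.111, adjusted p 1.17e-08).

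Calr, calreticulin, the soluble relative of calnexin and the main calcium store protein of the ER lumen, rose and then fell in wt. It stood at 468, 398 and 462 CPM naive, at 978, 876 and 832 CPM at 24 h and at 618, 437 and 658 CPM at 48 h. At 48 h it was still called above naive in wt (1.29-fold, edgeR adjusted p 0.0382) although the groups overlapped, and the call was lost in 7 of 11 alternatives (adjusted p up to 0.37). The fall from 24 h to 48 h passed the edgeR test (fold 0.638, adjusted p 0.0106). It was lost with the compared groups alone and without the wt mouse of experiment 1 or 3, with adjusted p up to 0.145. KI libraries held 442, 473 and 411 CPM, then 788, 751 and 828 CPM, then 682, 613 and 789 CPM, and their later change was not called (fold 0.881, edgeR adjusted p 0.626). The pair labelled KO moved from 461 and 455 CPM to 525 and 683 CPM. The difference of the KI and wt changes from 24 h to 48 h was 0.47 on the log2 scale (SE 0.205, unadjusted p 0.0352) and failed the correction (edgeR adjusted p 0.831).

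Tmx1, an ER membrane oxidoreductase found at contacts, changed least of the 3 by 24 h. Wt libraries held 57, 56.1 and 54.6 CPM naive, 61.9, 67.6 and 57.4 CPM at 24 h and 76.7, 57 and 100 CPM at 48 h. KI libraries held 52.9, 51.4 and 55.5 CPM, then 54.3, 61.8 and 52.7 CPM, then 67.6, 61 and 69.5 CPM. From 52.5 and 55.7 CPM, libraries labelled KO went to 49.4 and 89.3 CPM, a wide spread between the 2 mice. Only the wt change at 48 h was called among these comparisons (1.39-fold, edgeR adjusted p 0.0324), and 4 of 11 alternatives kept that call.

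Among the tethers, Rmdn3 and Pacs2 moved in opposite directions. Rmdn3 (ENSMUSG00000070730, chromosome 2, 119137001 to 119157034) codes for PTPIP51, the outer membrane partner of the ER protein VAPB. Wt libraries held 23.8, 22 and 24.4 CPM naive, 37, 45.1 and 35.1 CPM at 24 h and 64.8, 38.5 and 69.2 CPM at 48 h. KI libraries held 24.6, 22.9 and 21.8 CPM, then 31.1, 33.5 and 30.7 CPM, then 36.8, 36 and 47.1 CPM. The pair labelled KO started at 22.7 and 25.9 CPM and ended at 25.5 and 60.8 CPM, so one mouse hardly moved. The wt rise at 48 h was 2.45-fold (edgeR log2 1.29, SE 0.241, adjusted p 0.00017), and the wt library of experiment 3 was the lowest of the 3.

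Pacs2, a sorting protein that keeps ER and mitochondria apposed (ENSMUSG00000021143, chromosome 12, 113014508 to 113074401), fell at each step in wt. Libraries held 157, 148 and 134 CPM naive, 89.7, 78.8 and 83.9 CPM at 24 h and 66.5, 63 and 53.3 CPM at 48 h. In KI the values were 157, 160 and 133 CPM, then 96.9, 88.4 and 105 CPM, then 79.3, 65.8 and 70 CPM. Libraries labelled KO fell from 117 and 149 CPM to 80 and 65.9 CPM. The groups did not overlap between times in any genotype. The wt fold by edgeR was 0.575 at 24 h (adjusted p 4.96e-05). It reached 0.417 at 48 h (adjusted p 1.75e-07), and the step from 24 h to 48 h was 0.725 (adjusted p 0.0319). That step lost its call with the compared groups alone and without any one of the 3 wt mice (adjusted p up to 0.221).

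The other tethers changed by less. Vapa, the ER anchor protein that Rmdn3 and lipid transfer proteins bind, rose 1.28-fold in wt at 48 h (edgeR adjusted p 0.00432). Its relative Vapb ranged from 45.4 to 71.7 CPM over all libraries and was called in no comparison. Bcap31, an ER membrane protein that binds Fis1, rose 1.26-fold in wt (adjusted p 0.0204) and 1.5-fold in KI (adjusted p 0.000382) at 48 h. Fundc1, an outer membrane mitophagy receptor found at contacts, rose at 24 h by 1.25-fold in wt and 1.28-fold in KI (edgeR adjusted p 0.0368 and 0.0244), and the wt call held in 2 of 11 alternatives. Erlin2, which takes part in the turnover of activated Itpr proteins, rose 1.25-fold in wt at 24 h (edgeR adjusted p 0.0218), a call kept by 4 of 11 alternatives. Pdzd8, an ER tether, was called in no comparison.

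Lipid transfer genes split within both families. Osbpl5 and Osbpl8 code for ORP5 and ORP8, which work together in moving phosphatidylserine at contacts. Osbpl5 (ENSMUSG00000037606, chromosome 7, 143688762 to 143756985) held 38.8, 41.3 and 33.7 CPM in wt naive libraries, 18.3, 15.9 and 21.4 CPM at 24 h and 10.1, 10.4 and 9.11 CPM at 48 h. KI libraries held 47.4, 47.3 and 45.5 CPM, then 27.6, 25.5 and 32.8 CPM, then 17.9, 17.6 and 14.3 CPM. Libraries labelled KO fell from 38.5 and 34.7 CPM to 7.91 and 8.01 CPM. At each of the 3 times every KI library lay above every wt library, with an edgeR call at 48 h only. Times did not overlap within a genotype. By edgeR the 48 h fold was 0.26 in wt (adjusted p 1.91e-09), 0.355 in KI (adjusted p 6.61e-08) and 0.218 in libraries labelled KO (adjusted p 2.21e-08). It was also the 1 member called between 24 h and 48 h in KI.

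Osbpl8 rose where Osbpl5 fell, by 1.76-fold in wt (edgeR adjusted p 0.000536), 1.56-fold in KI (adjusted p 0.00481) and 1.91-fold in libraries labelled KO (adjusted p 0.00154) at 48 h. The last call was lost with those groups alone and without the mouse of experiment 1 (adjusted p up to 0.101). The sum of both in FPKM was 25.1 ± 2.36 in wt naive cells and 28.7 ± 3.21 at 48 h (SD, n = 3). By mouse it went from 26.1, 26.8 and 22.4 to 29, 31.7 and 25.3 FPKM in experiments 1, 3 and 5, a rise in each. Osbpl5 made up 36.5 ± 1.06% of that sum naive, 18.8 ± 2.48% at 24 h and 7.87 ± 0.412% at 48 h in wt. In KI the shares were 41.3 ± 1.07%, 28.4 ± 8.64% and 13.8 ± 1.02%. Libraries labelled KO had mean shares of 34.8% and 5.89%.

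Vps13d, a bridge-like lipid transfer protein linked to mitochondrial shape and clearance (ENSMUSG00000020220, chromosome 4, 144972622 to 145195005), fell the most of all members in wt. Libraries held 244, 251 and 204 CPM naive, 71.8, 66.1 and 96.4 CPM at 24 h and 52.4, 78.1 and 38.1 CPM at 48 h. KI libraries held 277, 246 and 229 CPM, then 108, 97.8 and 90.5 CPM, then 90, 83.4 and 67.5 CPM. Libraries labelled KO fell from 222 and 227 CPM to 95.8 and 50.9 CPM. Stimulated libraries lay below naive ones in every genotype, and KI and wt overlapped at 24 h and 48 h. The wt fold at 48 h was 0.241 by edgeR (log2 -2.05, SE 0.238, adjusted p 8.91e-07). Vps13c, a relative that bridges the ER to late endosomes and lipid droplets, fell to 0.585 of naive in wt (edgeR adjusted p 0.0397) and 0.561 in KI (adjusted p 0.0321). The wt call was lost without the mouse of experiment 1 or 5 (adjusted p up to 0.193), and the KI call without any one of the 3 mice (up to 0.132). Vps13a, the relative found at mitochondrial contacts, ranged from 83.8 to 157 CPM over all libraries and was called in no comparison. The share of Vps13d in the FPKM of the 3 genes went from 28.7 ± 0.115% to 11.1 ± 0.751% in wt (SD, n = 3).

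**Figure D4:**
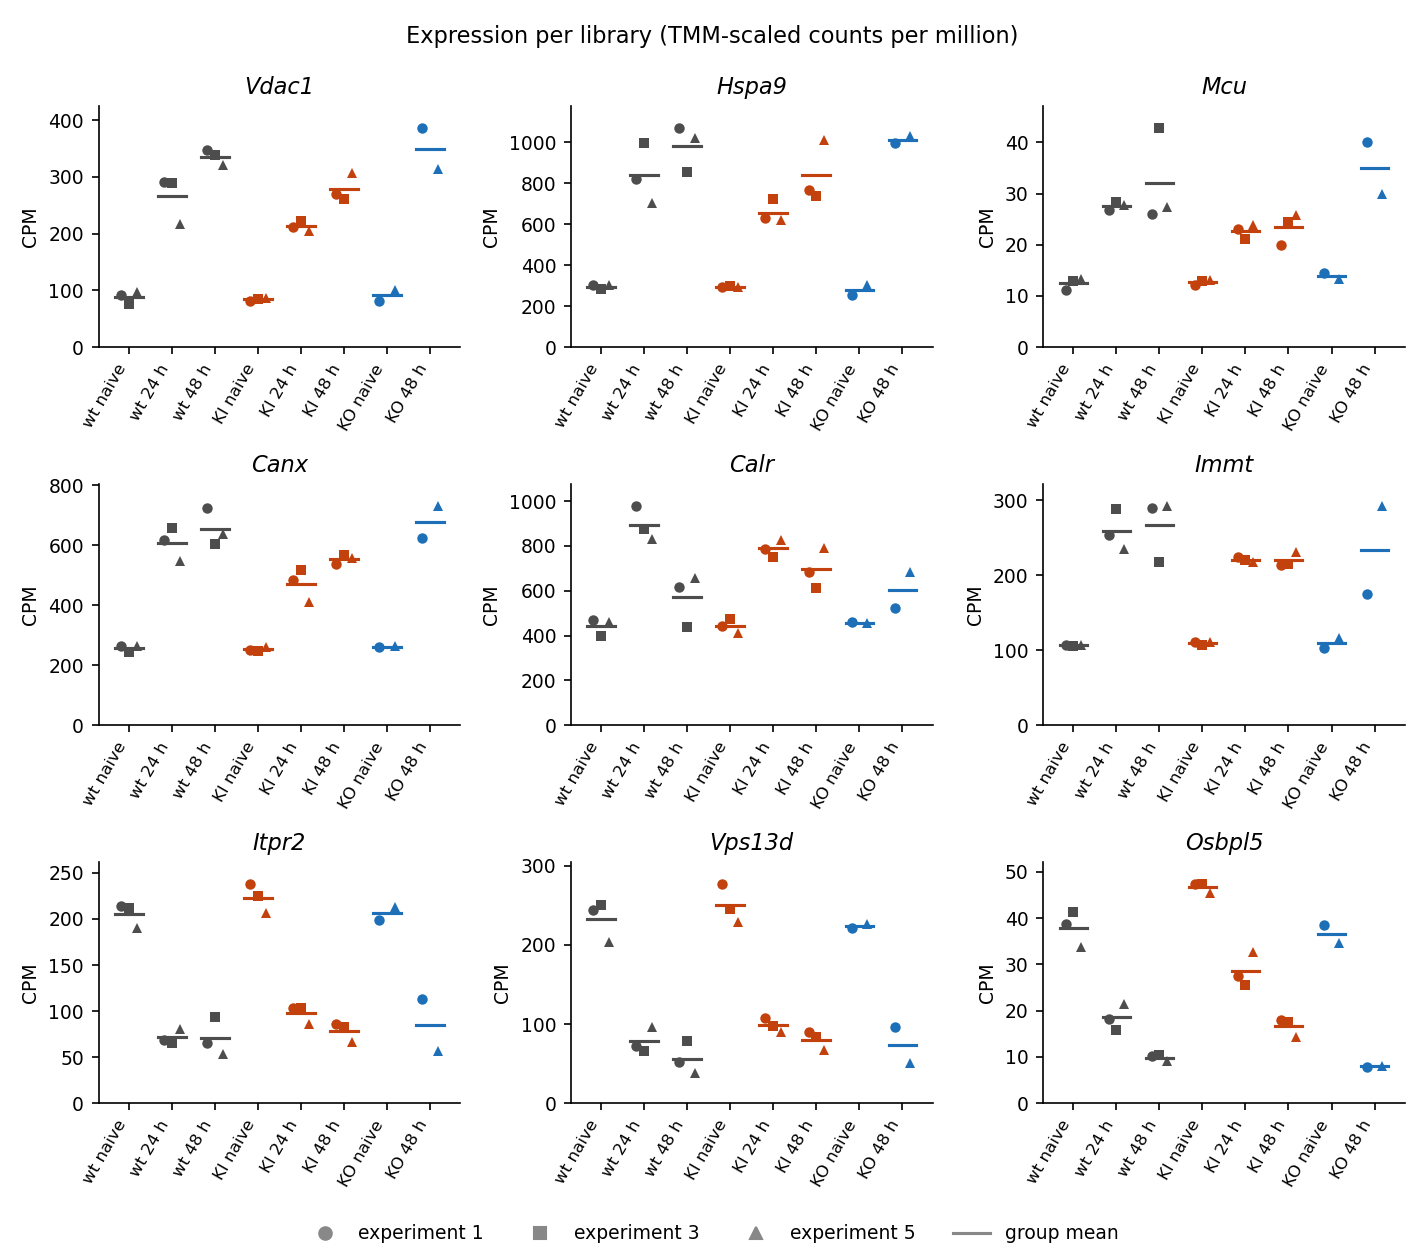
Points are CPM of 9 members in each library, shaped by experiment and coloured by genotype, with a line at the group mean, and each axis starts at 0. Calr peaks at 24 h in wt, and Osbpl5 falls to between 7.91 and 10.4 CPM in wt libraries and libraries labelled KO at 48 h while KI libraries stay between 14.3 and 17.9 CPM.

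Genes that shape mitochondria rose or were not called, and none was called lower. Immt, the core of the complex that forms cristae junctions (ENSMUSG00000052337, chromosome 6, 71831331 to 71877388), held 107, 105 and 107 CPM in wt naive libraries, 253, 288 and 235 CPM at 24 h and 289, 218 and 292 CPM at 48 h. KI libraries held 111, 107 and 111 CPM, then 224, 220 and 217 CPM, then 213, 215 and 231 CPM. Libraries labelled KO rose from 103 and 116 CPM to 175 and 292 CPM. Naive and stimulated libraries did not overlap, and at 48 h wt and KI did. The wt rise at 48 h was 2.5-fold by edgeR (log2 1.32, SE 0.15, adjusted p 6.45e-07).

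Opa1, which fuses inner membranes and keeps cristae tight (ENSMUSG00000038084, chromosome 16, 29579334 to 29654884), rose less than Immt. Wt libraries held 72.5, 69.1 and 69.7 CPM naive, 111, 109 and 104 CPM at 24 h and 141, 127 and 112 CPM at 48 h. KI libraries held 72.8, 76.7 and 75.2 CPM, then 105, 112 and 84.8 CPM, then 100, 105 and 95.1 CPM. Libraries labelled KO went from 64.9 and 77.1 CPM to 104 and 132 CPM. At 48 h every KI library lay below every wt library, a difference that edgeR did not call. By edgeR the rise at 48 h was 1.79-fold in wt (adjusted p 9.34e-06), 1.34-fold in KI (adjusted p 0.00719) and 1.66-fold in libraries labelled KO (adjusted p 0.00053).

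The outer membrane fusion GTPases Mfn1 and Mfn2, the latter also a tether, rose 1.56-fold (edgeR adjusted p 0.000408) and 1.34-fold (adjusted p 0.00456) in wt at 48 h. In KI, Mfn1 changed 1.19-fold (adjusted p 0.13) and Mfn2 rose 1.22-fold (adjusted p 0.0489), a call kept by 2 of 11 alternatives and lost with mice as a block. Fission genes moved by less than fusion genes in wt. Mff, a receptor for the fission GTPase, rose 1.28-fold at 48 h (adjusted p 0.00351). Dnm1l, that GTPase, ranged from 75.3 to 110 CPM over all libraries and was called in no comparison. Fis1, a further outer membrane adaptor, was called in KI at 24 h (1.38-fold, edgeR adjusted p 0.01). In wt at 24 h it missed the threshold (1.25-fold, adjusted p 0.0523) and was called with mice as a replicate block (adjusted p 0.013). The difference between fusion and fission genes was not tested.

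The members that fell were longer genes by their median, with overlapping ranges. The 6 called lower in wt at 48 h had a median length, as implied by the deposited FPKM, of 10.2 kb (4.92 to 24.8 kb). The 19 called higher had a median of 3.93 kb (1.08 to 9.76 kb). Among the 3580 longest of all genes with a length, 34.8% were called lower and 27.5% higher, and among the 3581 shortest 21.7% and 37.1%. The part of length in the changes of Itpr2, Itpr3 and the Vps13 genes was not tested. Stimulated libraries of experiment 5 had the lowest Vps13c and Vps13d in wt and KI at 48 h.

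KI cells were compared with their own naive cells in the same way. At 48 h, 15 members were called higher and 7 lower, against 26.6% and 22.1% of all genes, and at 24 h 14 higher and 6 lower, against 22.9% and 15.8%. From 24 h to 48 h, 0 were called higher and 1 lower, against 1.71% and 0.968%. In that comparison 8 members had an unadjusted p under 0.05, against 15.5% of all genes, and DESeq2 called Vdac1 higher and Pacs2 lower besides. The log2 fold changes at 48 h had the same sign in wt and KI for 32 of 33 members, and were smaller in size in KI for 27. At 24 h the sign was shared by 30, and 20 were smaller in KI. Signs and sizes were not counted over all genes, so no background share stands beside them. The wt and KI groups share no controls. In libraries labelled KO, 14 were called higher and 5 lower at 48 h, against 23.6% and 20.4% of all genes. Fitting those groups alone, with 2 libraries each, left 4 higher and 1 lower. The share of all genes called in that fit is not given here. Upper-quartile scaling gave 11 higher and 7 lower in KI at 48 h, 8 and 7 in KI at 24 h, 10 and 5 in libraries labelled KO and 10 and 7 in wt at 24 h. With it, 42.9%, 44.9%, 43.1% and 42.6% of the calls over all genes were higher, in place of 54.6%, 59.2%, 53.7% and 54.5%.

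The direct comparison of KI with wt asked whether the knock-in altered these genes at each time. In naive cells 0 of 33 members were called by edgeR, against 0.113% of all genes, with 1 at an unadjusted p under 0.05, against 2.05% of all genes, and 0 by DESeq2. At 24 h again 0 were called, against 0.00472% of all genes, with 7 at an unadjusted p under 0.05, against 8.98%. DESeq2 called Osbpl5 at 24 h (log2 0.58, adjusted p 0.0149). At 48 h edgeR called 1 member, Osbpl5, against 4.17% of all genes, which is close to the share of 1 in 33, and 9 members had an unadjusted p under 0.05, against 17.9% of all genes.

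Osbpl5 was higher in KI by 1.68-fold at 48 h (edgeR log2 0.75, SE 0.135, adjusted p 0.0042), and the adjusted p ranged from 1.38e-05 to 0.0862 over 14 alternatives. The call was lost with the compared groups alone and without the mouse of experiment 1 in either genotype. Within experiments 1, 3 and 5 the KI minus wt difference was 0.83, 0.76 and 0.65 on the log2 scale at 48 h. It was 0.60, 0.68 and 0.61 at 24 h and 0.29, 0.19 and 0.43 in naive cells. Each of these 9 within-experiment differences was positive. They come from 3 KI and 3 wt mice, each sampled at 3 times, so they are not 9 independent values. The fitted naive difference was 0.30 (SE 0.133, edgeR adjusted p 1). The difference between the KI and wt changes from naive to 48 h was 0.45 (SE 0.189, unadjusted p 0.0286, edgeR adjusted p 0.429).

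The other 32 members did not pass the test at 48 h. Differences leaned one way, since 23 of 33 members had a negative log2 difference, against 10465 of 21183 genes. All come from the same libraries, so the signs are not independent. The median of the members was -0.15, against 0 over all genes. Without the wt mouse of experiment 1 that median was -0.09. The calcium transfer genes had a median of -0.25 and 8 of 10 below 0, and the shape genes -0.23 and 7 of 7 below 0. The lipid transfer genes had a median of 0.10 with 4 of 5 above 0. Members with a low unadjusted p included Mcu (log2 -0.45, SE 0.166, edgeR adjusted p 0.139), Opa1 (-0.34, SE 0.119, adjusted p 0.125) and Vdac2 (-0.28, SE 0.107, adjusted p 0.169). DESeq2 called Mff as well (log2 -0.26, adjusted p 0.0349), and edgeR called Vps13d without the wt mouse of experiment 3 (0.83, adjusted p 0.0432).

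**Figure D5:**
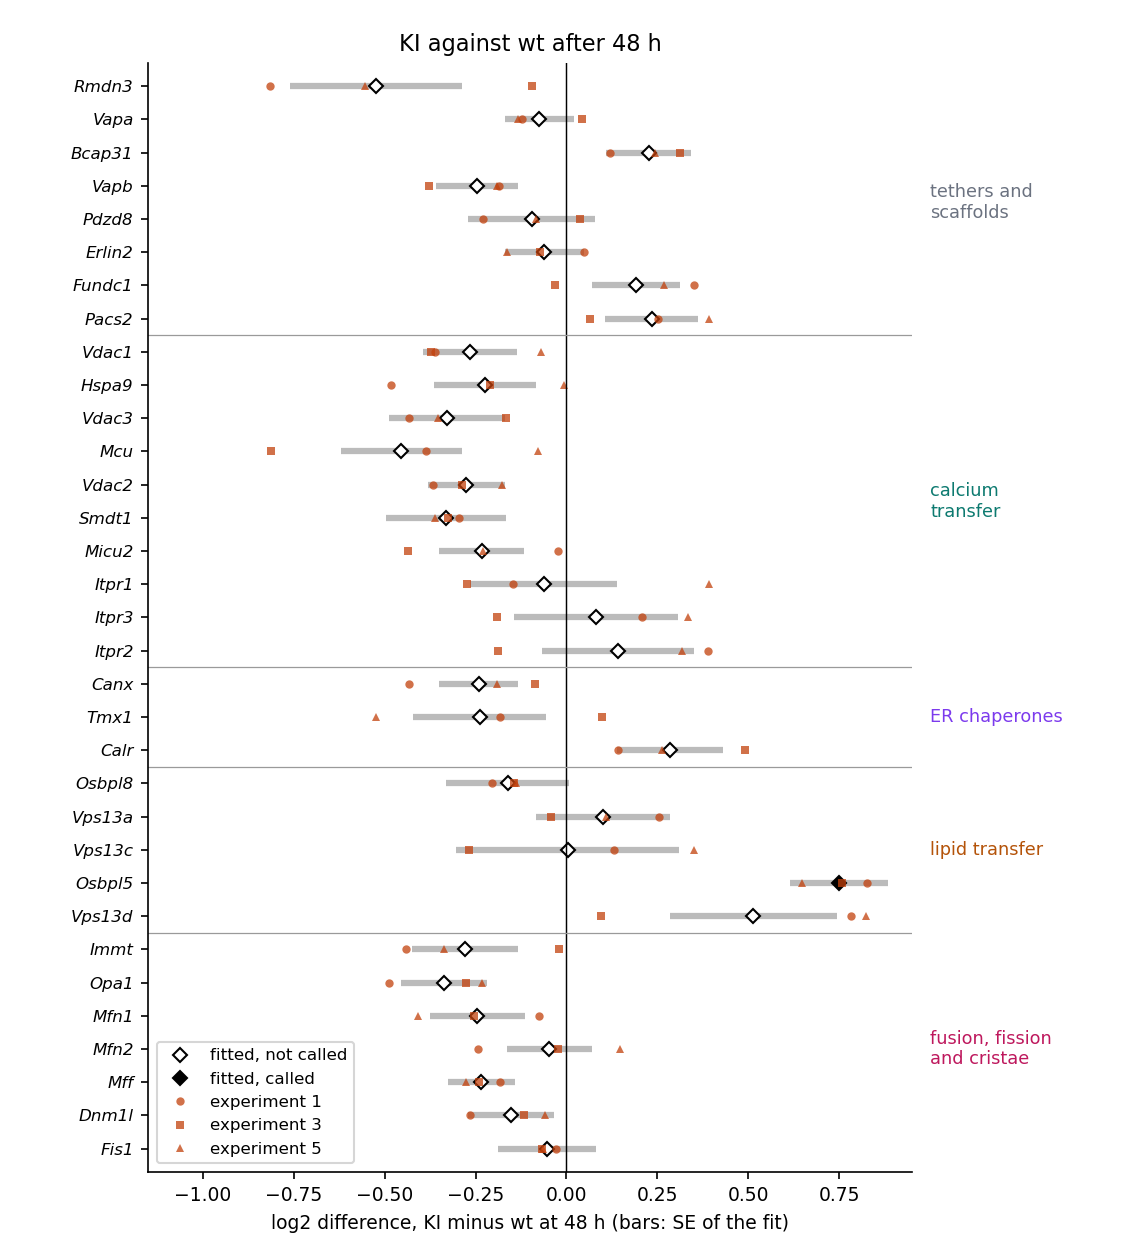
Diamonds are edgeR log2 differences of KI minus wt at 48 h with bars of 1 standard error, and the small symbols are the differences within experiments 1, 3 and 5. Osbpl5 is the single filled diamond, at 0.75, and most calcium transfer and shape genes lie left of 0.

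Split by experiment, the same libraries at 48 h gave member medians of -0.18, -0.12 and -0.08 in experiments 1, 3 and 5. At that time 17 members were below wt in all 3 experiments, 5 above in all 3 and 11 mixed. Neither the medians nor the counts within experiments were taken over all genes. Members below wt in every experiment included Vdac1 (-0.36, -0.37 and -0.07), Mcu (-0.39, -0.81 and -0.08), Opa1 (-0.49, -0.28 and -0.23) and Rmdn3 (-0.82, -0.10 and -0.55). Calr was above wt in each (0.14, 0.49 and 0.26). In naive cells 3 members were below wt in all experiments and 8 above. On the first principal component of all genes, which orders naive to stimulated libraries, KI 48 h libraries lay at 74.8, 80 and 86.6 and wt 48 h libraries at 128, 110 and 100. Naive libraries of both lay between -148 and -139. Markers of other blood cells summed to 82.3 to 156 CPM in KI and 43 to 112 CPM in wt at 48 h. Pecam1, a vessel marker that T cells also express, ran from 146 to 195 CPM in KI and from 86.3 to 91.7 CPM in wt at 48 h. Its naive means were 189 CPM in KI and 177 CPM in wt. The stroma marker Col1a1 had means of 0.469 CPM in KI and 0.308 CPM in wt at 48 h. The part of these shared shifts in the members' differences was not tested.

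Changes from naive were compared between genotypes as differences of responses. From naive to 24 h, 0 of 33 members differed between KI and wt by edgeR, against 0% of all genes, with 2 at an unadjusted p under 0.05 (Canx and Mfn2), against 3.28%. From naive to 48 h it was 0, against 0.387%, with 3 at an unadjusted p under 0.05 (Osbpl5, Opa1 and Mfn1), against 9.7%. With the replicate block it was also 0 members, against 0.873% of all genes (185 calls in place of 82). From 24 h to 48 h it was 0, against 0.00472%, with 1 (Calr) at an unadjusted p under 0.05, against 5.66%. DESeq2 also called 0 members in these comparisons. For Opa1 the difference to 48 h was -0.42 on the log2 scale (SE 0.168, unadjusted p 0.0205, edgeR adjusted p 0.38), a smaller rise in KI. These tests show neither a smaller response of the members in KI nor an equal one.

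Libraries labelled KO were compared with wt with 2 mice against 3, of a different line. In naive cells 0 of 33 members were called by edgeR, against 0.0236% of all genes, and at 48 h 0, against 0.0283%. No member had an unadjusted p under 0.05 at either time, against 1.31% and 6.92% of all genes, and DESeq2 called 0. With the replicate block 8 genes in place of 5 were called in naive cells, again with 0 members. The difference of the changes from naive to 48 h also called 0 members, against 0% of all genes. At 48 h the fitted log2 differences ran from -0.41 (Rmdn3) to 0.57 (Vps13c). Osbpl5, higher in KI, was at -0.31 (SE 0.152, edgeR adjusted p 0.723), with both libraries below every wt library. Line and genotype cannot be told apart here. Sex overlaps with them in part, since both KO mice were female and the wt mouse of experiment 5 was too. A fit with sex as a covariate also called 0 members. In wt and KI the females are those of experiment 5, so that fit cannot separate sex from experiment.

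The 2 libraries labelled KO at 48 h differed from each other. Without the mouse of experiment 5, the lone 48 h library of experiment 1 differed from wt in 7 of 33 members, with its spread assumed to be that of the other groups. In the same fit 21.5% of all genes were called, so the members' share was that of the background. These were Rmdn3 (log2 -1.18), Pdzd8 (-0.73), Tmx1 (-0.66) and Immt (-0.61), which were lower, and Itpr3 (0.82), Itpr2 (0.67) and Mfn1 (0.47), which were higher. This is the library that stood apart on the second component. Without that library, all calls of members against naive in wt and KI remained. In KO this leaves 1 library at 48 h, so only folds are given, and the naive library of the mouse of experiment 1 was kept. The folds against naive were then 2.15 for Mcu, 0.363 for Itpr3, 0.22 for Osbpl5, 1.59 for Osbpl8, 1.86 for Opa1 and 2.51 for Rmdn3. For Tmx1, Calr and Pdzd8, which were not called with both libraries, the folds were 1.66, 1.49 and 1.37.

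A wider list of 60 genes related to contacts, calcium handling, lipid transfer and mitochondrial shape gave the surroundings. In wt at 48 h, 32 were called higher and 10 lower, with a median log2 fold change of 0.48. Over all genes 29.5% were higher and 26.8% lower, with a median of -0.04. The largest rises were in Bcl2l1 (11.5-fold), which codes for the survival protein BCL-XL, the lipid synthesis enzyme Dgat2 (8.55-fold), and Cisd1 (7.04-fold), an outer membrane iron-sulphur protein, with edgeR adjusted p of 4.37e-08, 5.87e-08 and 2.78e-09. The largest falls that passed the test were in Orai2 (fold 0.142, edgeR adjusted p 1.28e-09), a plasma membrane calcium channel subunit, and Atp2a3 (0.315, adjusted p 9.31e-07), the pump that refills the ER of lymphocytes. Efhd1 had the next lowest fold (0.484) but a mean of at most 0.086 CPM in any group, and did not pass (edgeR adjusted p 0.46).

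Store-operated entry and refilling genes split by isoform in the same comparison. Atp2a3 went from 431 to 136 CPM (means, n = 3) while Atp2a2 went from 110 to 255 CPM. Stim1 went from 139 to 89.5 CPM while Stim2 went from 40.7 to 88.9 CPM, and Orai1 from 20 to 43.9 CPM while Orai2 went from 325 to 46 CPM. Atp2a pumps refill the ER, Stim proteins sense its calcium, and Orai proteins form the plasma membrane channel. All 6 were called by edgeR, with Atp2a3, Stim1 and Orai2 lower and Atp2a2, Stim2 and Orai1 higher. These isoform pairs were chosen after their values were seen.

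Of the 60 related genes, edgeR called 2 between KI and wt at 48 h, both higher in KI, a share near the 4.17% of all genes. Orai2 stood at 72.9 ± 11.9 CPM in KI and 46 ± 0.723 CPM in wt (SD, n = 3, edgeR adjusted p 0.0467). Miga2, an outer membrane protein that links mitochondria to the ER and lipid droplets, stood at 11.8 ± 0.231 and 6.29 ± 2.13 CPM (adjusted p 0.024). Both are genes that fell in wt at 48 h. None of the 60 was called between KI and wt in naive cells or at 24 h, or between libraries labelled KO and wt.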

How the data were processed

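Bulk RNA was sequenced from 22 libraries (TruSeq stranded mRNA, paired-end, per the labels). The deposited counts per gene are whole numbers, which the authors made with TopHat2 2.1.0, Bowtie2 2.2.5, SAMtools 0.1.19 and featureCounts on GRCm38, per the submitters' processing notes. The strand setting and annotation release are not given in the sources used here. The authors also deposited log2 values of counts divided by size factors and log2 variance-stabilised values, for which their notes name DESeq2 1.6.3. The deposited FPKM divide by a gene length, and 72% of genes had a length within 1% of their union exon length in GENCODE annotation.

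Counts were tested with edgeR 4.0.16 (R 4.3.3): TMM scaling, a minimum count of 10 and total of 15, 8 group means in 1 robust quasi-likelihood fit with 14 residual degrees of freedom, and Benjamini-Hochberg adjustment over 21183 genes, called at an adjusted p under 0.05. The fit was tested on simulated data. Levels between genes use FPKM. Alternatives were upper-quartile and library-size scaling, no filter, DESeq2 1.42.0, limma 3.58.1 on the deposited variance-stabilised values, the compared groups alone, a replicate block, sex as a covariate, each mouse left out and, added after seeing the data, the KO 48 h library of experiment 1 left out. The labels give the mouse and the experiment, so libraries are paired. Deviations from group means had a median correlation of 0.124 within a mouse, 0.123 between genotypes of 1 experiment at the same time, 0.0502 at other times and -0.0276 across experiments. Replicates differed beyond counting noise (chi-square per degree of freedom at least 15.4). With these depths the precision is set by the spread between mice.

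The members and the gene lists were chosen with earlier results of these data known, so they are described by counts and not tested as sets. Values in every library are given for members called between genotypes and for the 2 largest changes per role in wt at 48 h. Mcu, Itpr2 and Calr were added after their values were seen. For related genes, up to 3 changes each way are named, with those called between KI and wt. Motifs were searched in RefSeq promoter windows on both strands. Of the members, 10 have an exon over another gene, 9 of them on the opposite strand. Without a stated strand setting, counts of these members are uncertain, and the overlapping genes are not reported here.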

Additional observations from a re-analysis of the deposited data

How the results depend on the processing

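The 114 calls of single members kept their direction in every alternative run, and none reversed. With the replicate block (mouse for times, experiment for genotypes), 111 of the 114 were kept, and 19 members were higher and 7 lower in wt at 48 h, and the pairing moved no count of members by over 1.5 times. Over all genes it took the difference of KI and wt responses from naive to 48 h from 82 to 185 calls and their share higher from 35.4% to 53%, and KO against wt in naive cells from 5 to 8 calls. Upper-quartile scaling kept 86, library-size scaling 104, DESeq2 106, limma 100, no filter 105 and the compared groups alone 91. Without the KO 48 h library of experiment 1 all 114 were kept.

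With upper-quartile scaling the members called higher against naive fell from 17 to 10 in wt at 24 h, from 19 to 12 in wt at 48 h and from 14 to 8 in KI at 24 h. The share of all calls that were higher moved from 54.5% to 42.6%, from 52.5% to 41.7% and from 59.2% to 44.9%. For KI and KO at 48 h it moved from 54.6% to 42.9% and from 53.7% to 43.1%. The median of all genes moved by -0.17 to -0.22. Library-size scaling moved it by -0.11 in KO at 48 h.

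From 24 h to 48 h in wt, members called higher were 1 with DESeq2 and 2 without the KO 48 h library of experiment 1, and members called lower were 1 with the compared groups alone. In KI over the same step, 1 was higher and 2 lower with the compared groups alone and with DESeq2, and 2 lower without that KO library. In KO at 48 h the compared groups alone left 4 higher and 1 lower. Between KI and wt, DESeq2 called 1 at 24 h and 2 at 48 h, and the compared groups alone called 0 at 48 h. Shares of all genes called in these alternatives are not given beside the counts.

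Leaving out each replicate in turn gave 10 to 15 members higher in wt at 24 h, 14 to 17 in wt at 48 h, 8 to 13 in KI at 24 h, 1 to 2 lower from 24 h to 48 h in wt and 0 to 1 in KI. It gave 0 to 1 between KI and wt at 24 h, 0 to 2 at 48 h, and 0 to 7 between KO and wt at 48 h, the 7 without KO replicate 5. The share of all genes called in these fits is not given beside the counts. A lower count is therefore not shown to be particular to the members. Calls kept by fewer than 6 of 11 alternatives were those of Bcap31 in wt at both times and in KI at 24 h, Calr and Tmx1 in wt at 48 h, Erlin2, Fundc1 and Micu2 in wt at 24 h, and Mfn2 in KI at 48 h. In KO at 48 h those of Mff and Mfn2 were kept by 4 and 5 of 10.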
